A study of Mus musculus with 6 samples.

Results

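The 77 mitochondrial ribosomal protein genes are the rows of the deposited gene table whose symbol is Mrpl or Mrps followed by a number and at most 1 letter, with a mean of at least 20 counts over 6 libraries. They are 77 of 19162 genes. All 77 symbols that fit the pattern reached the minimum, and the lowest means were 79.3 counts for Mrpl53, 92.5 for Mrps36 and 180.5 for Mrpl23, so the minimum left out 0 genes. Mrpl23, of the large subunit, had 9.762, 10.99 and 9.249 CPM (counts scaled to a common library size) in control 1, 2 and 4 and 8.824, 9.271 and 9.959 in KCl 1, 2 and 4, with overlapping groups. All 77 also passed the filter on low counts. The cells came from the bone marrow of C57BL/6J mice and were kept for 4 days with 40 ng/mL of GM-CSF, a cytokine that makes myeloid precursors divide and mature. Control cells (control 1, 2 and 4) had no added salt, and KCl cells (KCl 1, 2 and 4) had 34.7 mM of extra potassium chloride. Every library thus shares the GM-CSF culture. Added KCl also raises osmolality, and no group here separates that from potassium. The animals' age and sex, and whether replicates came from separate mice or cultures, are not in the labels.

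Mitochondria keep a ribosome of their own, the mitoribosome, which makes only the few proteins encoded by mitochondrial DNA, all of them subunits of the respiratory chain or the ATP synthase. Its RNAs are transcribed inside the organelle, but every one of its proteins is encoded in the nucleus, made in the cytosol and imported. Some of these proteins descend from bacterial ribosomal proteins and others were added in the mitochondrial lineage. Myeloid cells differ in how much they use mitochondria: macrophages respire, whereas mature neutrophils have few mitochondria and live mainly on glycolysis.

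Replicate 4, averaged over its control and its KCl library, nearly matched the average of the rest. The CPM of control 4 and KCl 4 was averaged and divided by the average of the other 4 libraries, for the 67 members whose mean count reached 300. The log2 ratio had an SD of 0.00587 over genes, where counting noise alone would give 0.0558, and when any of 14 other library pairs was set against the rest it was 0.0797 to 0.154. This was not particular to the members. Over the 8231 genes of the whole table that reached 300 counts, the SD was 0.00953. Counting noise alone would give 0.0442 there, and the other pairs gave 0.123 to 0.262. Control 4 and KCl 4 were therefore not independent of the rest, p-values that use them may be too small, so calls and fold changes are given with and without them. Markers of several cell types also moved with KCl. Their calls are to be read against all tested genes, of which 12.4% were called higher and 10.5% lower. Without replicate 4 those shares were 0.333% and 0.126%. Summed over 10 neutrophil markers, CPM was 14983 to 15729 in control and 17686 to 23031 in KCl (4 members called higher, 0 lower). Over 10 monocyte and macrophage markers it was 1762 to 2108 and 2504 to 2656 (4 higher, 0 lower). The sum over 8 dendritic cell markers was 5543 to 7488 in control and 3951 to 5152 in KCl (0 higher, 5 lower), and over 7 eosinophil and basophil markers it was 2440 to 2689 and 1038 to 1256 (0 higher, 5 lower). No marker of these 4 lists was at 0 in any library. Lymphocyte markers summed to 18.02 to 23.7 and 36.5 to 42.3 CPM (5 of 7 tested, 2 higher), with 2 of them at 0 in control 1 and 1 in control 2. Erythroid markers summed to 1.80 to 3.08 and 2.81 to 3.38 CPM (1 of 5 tested, 0 called), with 1 at 0 in KCl 1. Without replicate 4 the calls were fewer: 0 of the neutrophil, dendritic cell, lymphocyte and erythroid markers, 1 higher among the monocyte and macrophage markers and 3 lower among the eosinophil and basophil markers. The part these shifts have in the results below was not tested, and in bulk RNA fewer cells of a type and less RNA per cell cannot be told apart. Library totals ran from 14118724 counts in control 4 to 21694831 in control 2.

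Promoters of 68 members were matched by symbol in RefSeq (GRCm38.p6, the same build as the mm10 of the submitters' notes), each as 250 bases before to 50 after the start site. They were searched on both strands for motifs of factors known to act on nuclear genes for mitochondrial proteins. The motif of NRF1 (GCGCANGCG) was in 23.5% of member promoters, against 13.8% of the promoters of 9765 tested genes and 6.47% of all 27025. The ETS motif (CCGGAAG), which GABP binds, was in 35.3%, against 18.3% and 9.12%. The YY1 motif (AAGATGGCG) was in 11.8%, against 3.25% and 1.49%. The cyclic AMP response motif (TGACGTCA) was in 2.94% against 3.29% and 1.88%, and the E-box CACGTG in 7.35% against 10.2% and 7.24%. None of the 5 motifs contains another. At least 1 of the first 3 was in 40 of the 68 member promoters (58.8%), against 31.2% of tested and 15.3% of all promoters. Median GC content was 58.2% in member promoters and 60.7% in those of tested genes. A match is a run of letters and not a shown binding site.

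The 4 stretches that follow are shown because they belong to members on which the results turn and hold such motifs, in capitals. They end before the start site and leave out every base that GENCODE M21 counts as an exon. Cut in the same way, the stretches of Mrpl30, Mrps23, Mrpl24 and Mrps33 held no NRF1, ETS or YY1 motif. For Mrpl53, Mrpl32, Mrps5 and Mrps7 no stretch was left after the cut. The full promoters, which the shares above count, held an NRF1 motif for Mrpl30 and Mrpl32 and an ETS motif for Mrps23, Mrps33 and Mrpl53. Those of Mrpl24, Mrps5 and Mrps7 held none. Mrpl45 (chr11:97315596-97315715, plus strand) holds 2 NRF1 motifs, Mrps22 (chr9:98601680-98601799, minus) 1 ETS motif, Mrpl43 (chr19:45006443-45006557, minus) 2 ETS motifs and Mrpl12 (chr11:120484517-120484612, plus) 1 NRF1 motif.
Mrpl45: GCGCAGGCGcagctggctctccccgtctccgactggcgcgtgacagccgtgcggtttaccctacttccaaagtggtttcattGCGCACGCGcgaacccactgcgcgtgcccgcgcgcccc
Mrps22: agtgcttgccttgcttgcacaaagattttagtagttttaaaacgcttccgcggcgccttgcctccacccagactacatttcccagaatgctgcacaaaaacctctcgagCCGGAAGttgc
Mrpl43: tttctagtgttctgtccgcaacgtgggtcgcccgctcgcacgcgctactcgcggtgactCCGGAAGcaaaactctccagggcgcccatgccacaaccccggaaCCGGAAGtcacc
Mrpl12: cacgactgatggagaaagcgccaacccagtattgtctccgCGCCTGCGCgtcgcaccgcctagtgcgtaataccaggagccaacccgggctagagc

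Levels of the members were moderate and uneven. Mean deposited FPKM (reads scaled for library depth and gene length) ran from 1.73 to 63.1 with a median of 9.86, 11.5 over the 50 members of the large subunit and 7.52 over the 26 of the small subunit. Mrpl42, a mitochondria-specific protein of the large subunit, had the highest FPKM, at 71.4, 67.8 and 61.9 in control 1, 2 and 4 and 57.9, 55.9 and 63.9 in KCl 1, 2 and 4. Mrpl4, related to bacterial L4, came next at 51.4, 43.6 and 39.8 FPKM in control and 43.5, 37.2 and 48.2 in KCl. Mrpl34, a short relative of bacterial L34, stood at 49.1, 40.2 and 38.0 FPKM in control and 38.8, 38.2 and 45.4 in KCl. In each of these 3 genes control and KCl libraries overlapped, and the order of Mrpl4 and Mrpl34 lay within that spread. Mrps17 was the lowest, listed at 1.77, 1.86 and 1.64 FPKM without KCl and 1.58, 1.73 and 1.82 with it. Mrps10 had 2.06, 1.95 and 1.655 FPKM without KCl and 1.68, 1.597 and 1.97 with it, and Mrps36 2.23, 1.96 and 2.26, then 1.52, 1.81 and 1.61. The ranges of the 3 genes overlapped one another, so their order is not set, while within Mrps36 every KCl value lay below every control value. Mrps17 and Mrps10 are relatives of bacterial S17 and S10, while Mrps36, despite its symbol, is now known as a part of the alpha-ketoglutarate dehydrogenase complex and was given no subunit here. These levels lean on the gene length behind FPKM. That length, worked back from count and FPKM, ran from 566 to 13836 bases among members and lay within 10% of the GENCODE M21 exon length for 10 of 77. For Mrps17 it was 13836 bases and for Mrpl42 666.

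Few members passed the test for KCl when all 6 libraries were used, each with a small change. A member that did not pass is not thereby shown to be unchanged. By the quasi-likelihood test of edgeR, at a Benjamini-Hochberg adjusted p under 0.05, 8 of 77 members passed (10.4%), against 22.9% of all 13326 tested genes. Of these, 2 were higher (2.60%, against 12.4% of all genes) and 6 lower (7.79%, against 10.5%). The log2 fold change (KCl minus control) lay below 0 for 68 members (88.3%), against 50.6% of all genes, with a median of -0.10 over members and -0.01 over all genes and a range of -0.36 to 0.49. Neither share of calls was above that of all genes. Without replicate 4, 0 members passed by edgeR and 0 by limma-voom, against 0.458% of all 13525 genes by edgeR (0.333% higher, 0.126% lower). The median was then -0.21, with 70 members below 0 (90.9%, against 50.3% of all genes). At an unadjusted p under 0.05 in that edgeR fit, 23 members were lower (29.9%, against 13.6% of all genes) and 1 was higher (1.3%, against 16.2%).

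**Figure D1:**
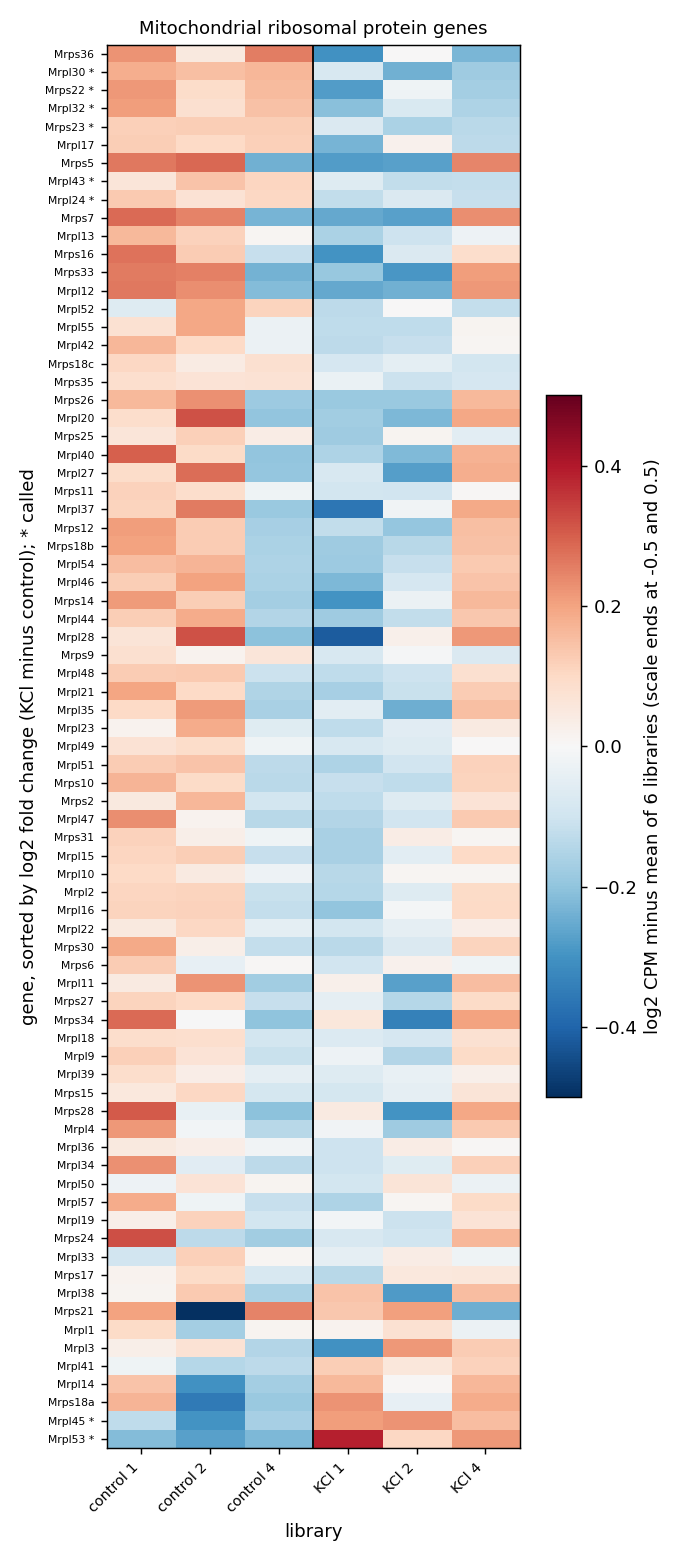
Heat map of all 77 members (rows, sorted by log2 fold change, called members starred) in the 6 libraries (columns), coloured by log2 CPM minus the gene's mean over the 6 libraries. Red is above and blue below the mean. In 44 rows control 1, control 2 and KCl 4 all lie above control 4, KCl 1 and KCl 2, while in 16 rows, most of them near the top or at the foot, the 3 control columns lie apart from the 3 KCl columns.

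Both members called higher encode mitochondria-specific proteins of the large subunit. Mrpl45, which sits at the tunnel exit and ties the mitoribosome to the inner membrane, had 61.6, 54.7 and 59.9 CPM in control 1, 2 and 4, against 77.8, 78.6 and 74.97 in KCl 1, 2 and 4. Every KCl library lay above every control library. The means were 58.7 ± 3.58 and 77.1 ± 1.92 CPM (SD, n = 3 each), a log2 fold change of 0.39 ± 0.06 (SE) with an edgeR adjusted p of 0.00826. Without replicate 4 the change was 0.43 ± 0.09 (edgeR adjusted p = 0.0846), and that was the only setting of 16 planned ones under which Mrpl45 missed the threshold. Mrpl53, the scarcest member by count, was at 3.62, 3.48 and 3.60 CPM without KCl and 5.57, 4.55 and 4.92 after KCl. Its groups did not overlap either, and it rose by 0.49 ± 0.12 on the log2 scale (edgeR adjusted p = 0.0282, and 0.190 without replicate 4). Exons of Gm42688 on the same strand and Ccdc142os on the other cover 88% of the exon bases of Mrpl53, so its reads cannot be told from theirs. Mrpl41, also specific to mitochondria, had groups that did not overlap, at 23.6, 21.7 and 21.8 CPM in control libraries and 26.1, 24.8 and 25.9 in KCl libraries, but did not pass (0.20 ± 0.06, edgeR adjusted p = 0.0764, and 0.17 ± 0.10 with 0.314 without replicate 4). It is shown because it is the only such member that was not called higher, and was chosen after its values were seen. Groups lay apart with KCl higher for 3 members in all (3.90%, against 20.2% of all genes).

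Among the 4 large-subunit members that fell, 3 have bacterial relatives. Mrpl30, related to bacterial L30, had 51.4, 50.4 and 50.8 CPM in the controls against 42.9, 38.4 and 40.1 with KCl. It fell by 0.33 ± 0.06 on the log2 scale (edgeR adjusted p = 0.0117), and by 0.33 ± 0.10 without replicate 4 (edgeR adjusted p = 0.115). Mrpl32, whose trimming by an inner-membrane protease is a step of mitoribosome assembly, went from 19.8, 18.1 and 18.9 CPM to 14.8, 16.2 and 15.3 (-0.29 ± 0.07, edgeR adjusted p = 0.0304). Mrpl24, related to bacterial L24, went from 77.0, 74.0 and 75.5 CPM to 64.6, 66.9 and 64.9 (-0.21 ± 0.05, edgeR adjusted p = 0.0251). The fourth, the mitochondria-specific Mrpl43, went from 50.2, 53.2 and 51.8 CPM to 46.0, 44.1 and 44.3 (-0.21 ± 0.05, edgeR adjusted p = 0.0327). All 3 KCl libraries lay below all 3 controls in each of these genes. Exons of Rrnad1 on the other strand cover 26.3% of those of Mrpl24, and exons of Twnk, the mitochondrial DNA helicase, 33.4% of those of Mrpl43, and whether the counting used strand is not given in these sources.

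In the small subunit 2 members fell, both specific to mitochondria. Mrps22, mutated in a human disorder of mitochondrial translation, stood at 21.8, 20.01 and 20.97 CPM in the controls and 15.4, 18.5 and 16.7 with KCl (-0.31 ± 0.09, edgeR adjusted p = 0.0468). Mrps23 stood at 29.7, 29.8 and 29.8 CPM without KCl and 26.0, 24.5 and 24.9 after KCl (-0.24 ± 0.06, edgeR adjusted p = 0.0243). Neither gene's groups overlapped. Without replicate 4 the log2 fold changes of Mrpl32, Mrpl24, Mrpl43, Mrps22 and Mrps23 were -0.29, -0.20, -0.20, -0.30 and -0.24, close to those with all libraries, but the edgeR adjusted p was 0.166 to 0.207. Groups lay apart with KCl lower for 13 members in all (16.9%, against 18.4% of all genes). The 7 of these that did not pass were Mrpl13, Mrpl17, Mrps9, Mrps18c, Mrps25, Mrps35 and Mrps36. Mrps36 had the lowest log2 fold change of all members, at -0.36 ± 0.13, from 5.81, 5.13 and 5.93 CPM in control to 3.99, 4.96 and 4.21 in KCl (edgeR adjusted p = 0.0955). Without replicate 4 it was at -0.29 ± 0.21 (edgeR adjusted p = 0.389). All 6 members called lower lost the call when control 4 alone, KCl 4 alone or both were left out. Other single libraries also ended calls, control 1 for Mrps22, Mrpl53, Mrpl32, Mrps23 and Mrpl24, control 2 for Mrps22, Mrpl53, Mrps23 and Mrpl43, KCl 1 for Mrps22, Mrpl53, Mrpl32, Mrpl24 and Mrpl43, and KCl 2 for Mrps23 and Mrpl43, and the edgeR adjusted p of the 7 members other than Mrpl45 reached 0.0553 to 0.147 at most.

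**Figure D2:**
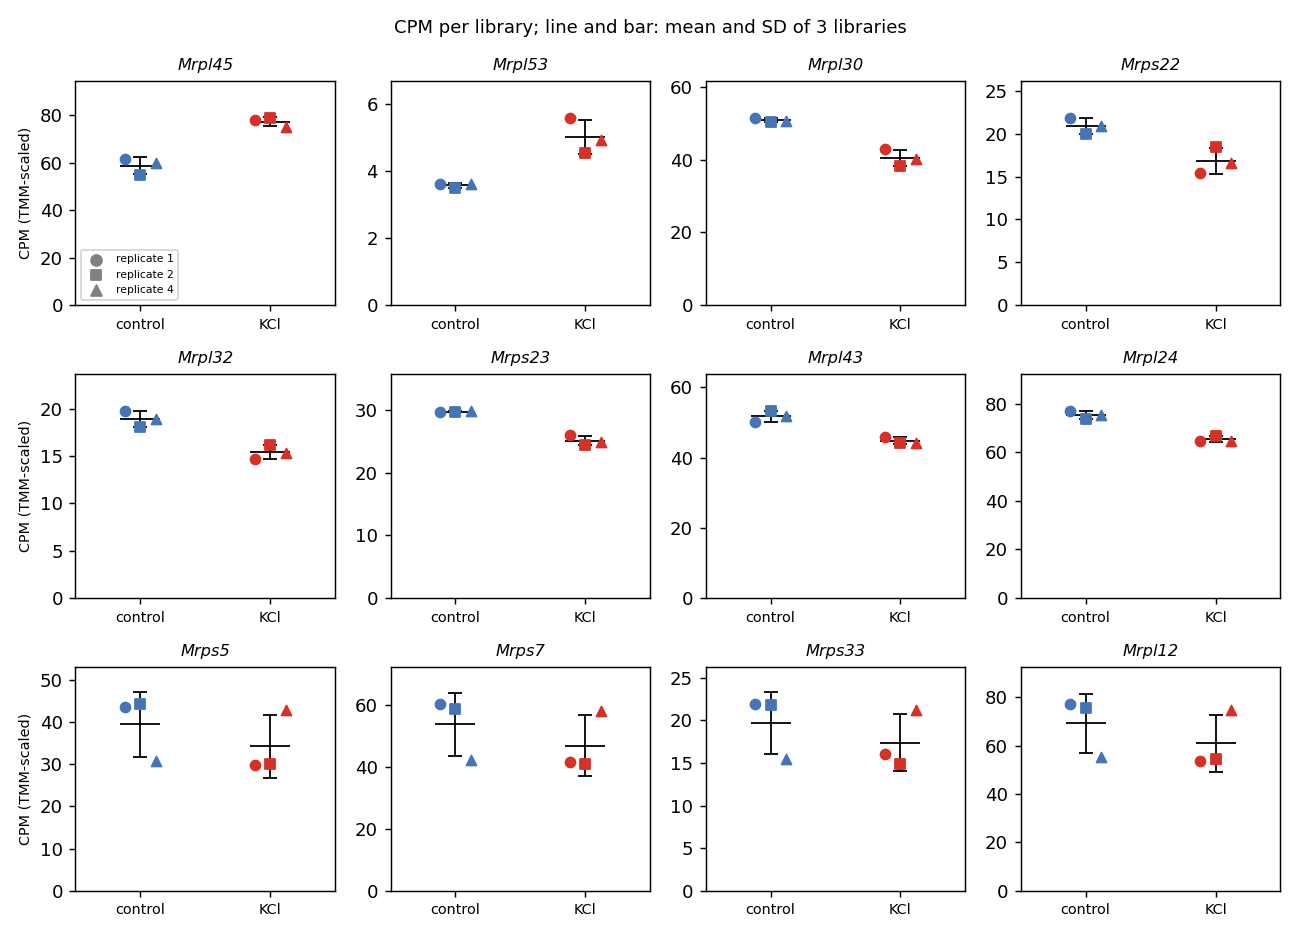
CPM per library (circle, square and triangle for replicates 1, 2 and 4; blue control, red KCl) with the mean and SD of each group for the 8 called members and for Mrps5, Mrps7, Mrps33 and Mrpl12. In the 8 called members the groups lie apart and the triangle falls beside the circle and square of its own group, whereas in the last 4 genes each triangle falls beside the other group.

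In the 8 called members, the CPM of control 4 differed from the mean of control 1 and 2 by a median of 0.257%, and that of KCl 4 from the mean of KCl 1 and 2 by 1.56%. Counting noise alone gives an SD of 4.30% for control 4 and 4.21% for KCl 4 at these counts (medians over the 8). These 8 genes were chosen by a test that favours a small spread within groups, so the distances describe them and support nothing. Over all 77 members the same distances had medians of 12.9% for control 4 and 12.1% for KCl 4.

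Most members followed another pattern. In 44 of 77 (57.1%, against 13.7% of all genes), KCl 1, KCl 2 and control 4 were all below control 1, control 2 and KCl 4. The mirror image, those 3 libraries all above the others, was seen in 0 members and in 10.8% of all genes. This held for 31 of 50 large-subunit and 13 of 26 small-subunit members, and for 29 of 46 with a bacterial relative and 15 of 30 specific to mitochondria. The 4 members described next were chosen after their values were seen, for the widest gap of this kind. Mrps5, related to bacterial S5 at the messenger's entry, had 43.4 and 44.2 CPM in control 1 and control 2 against 29.8 and 29.97 in KCl 1 and 2, but at 30.6 in control 4 and 42.9 in KCl 4. Mrps7, related to bacterial S7 of the small subunit's head, had 60.3 and 58.8 CPM in the first pair of controls and 41.5 and 41.1 in the first pair of KCl libraries, with control 4 at 42.2 and KCl 4 at 58.2. Mrpl12, part of the stalk that recruits translation factors and a partner of the mitochondrial RNA polymerase, was at 77.1 and 75.4, then 53.8 and 54.3, with control 4 at 55.1 and KCl 4 at 74.6 CPM. Mrps33, a small mitochondria-specific protein, was at 21.9 and 21.8, then 16.02 and 14.9, with control 4 at 15.5 and KCl 4 at 21.2 CPM. In all 4, the control library numbered 4 sat with KCl 1 and 2, and the KCl library numbered 4 with control 1 and 2. These 2 placements are not separate observations, because control 4 and KCl 4 averaged close to the other libraries. Their deviations from the gene's mean over the 6 libraries correlated at -0.997 over members and -0.881 over all tested genes.

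With all 6 libraries these 4 did not pass, with log2 fold changes from -0.21 ± 0.20 for Mrps5 to -0.19 ± 0.18 for Mrpl12. Without replicate 4 the log2 fold changes were -0.55 ± 0.09 for Mrps5, -0.53 ± 0.08 for Mrps7, -0.50 ± 0.11 for Mrps33 and -0.50 ± 0.08 for Mrpl12. Their edgeR adjusted p values were then 0.0686, 0.0686, 0.0833 and 0.0686, and 0.0686 was the lowest of any member in that fit. KCl 4 minus control 4 was 0.48, 0.47, 0.45 and 0.44 on the log2 scale for Mrps5, Mrps7, Mrps33 and Mrpl12. Over the 44 members the median log2 fold change was -0.10 with all 6 libraries and -0.26 without replicate 4, and the median of KCl 4 minus control 4 was 0.25. Control 4 differed from the mean of KCl 1 and 2 by a median of 1.23% in these genes, and from the mean of control 1 and 2 by 16.9%. KCl 4 differed from the mean of control 1 and 2 by 1.5% and from the mean of KCl 1 and 2 by 17.8%. Which of these distances is small was fixed by the choice of the 44 genes, and they are given as a description. All 77 members were taken by symbol and count, and include those 44. Among them control 4 lay nearer to KCl 1 and 2 in 55 and KCl 4 nearer to control 1 and 2 in 51. Over all 13326 tested genes the same counts were 5526 and 5640. The 2 counts are not independent, since control 4 and KCl 4 averaged close to the other libraries.

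**Figure D3:**
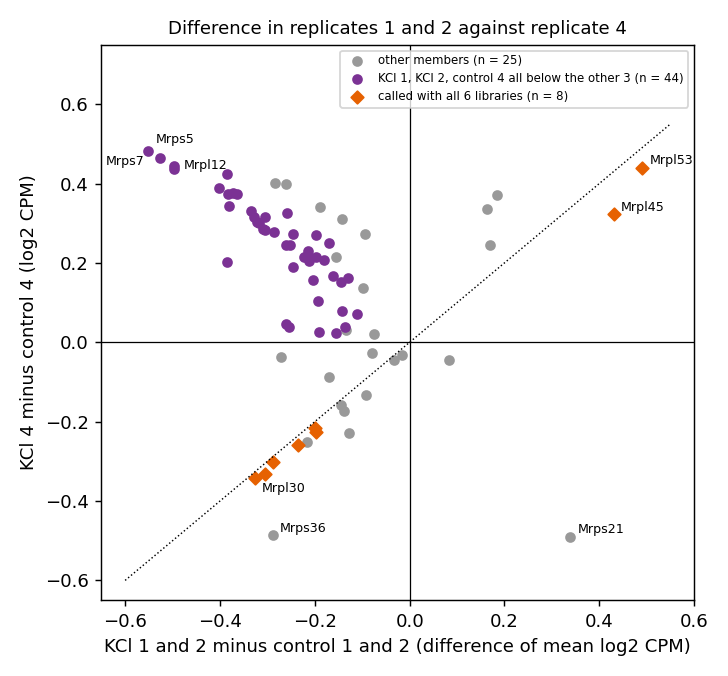
For each member, the difference KCl minus control in replicates 1 and 2 (horizontal, log2 CPM) against KCl 4 minus control 4 (vertical, log2 CPM), with the dotted line marking equal differences. The 8 called members lie near the dotted line, and the 44 members of the crossed pattern lie in the upper left, negative in replicates 1 and 2 and positive in replicate 4.

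Over all 77 members, KCl minus control in replicates 1 and 2 had a median of -0.21 on the log2 scale and lay below 0 in 70. KCl 4 minus control 4 had a median of 0.21 and lay below 0 in 19 (24.7%, against 48.7% of all genes). The 2 differences were opposite in sign for 55 members (71.4%, against 41.8% of all genes). Of the other members, 17 were negative in both and 5 were positive in both (Mrpl14, Mrpl41, Mrpl45, Mrpl53 and Mrps18a). Mrps21, related to bacterial S21, and Mrpl1, related to bacterial L1, were among the 55 but positive in replicates 1 and 2 and negative in replicate 4. Mrps21, described because it lies farthest out of these and chosen after its values were seen, was at 34.7, 20.7 and 35.8 CPM in control 1, 2 and 4 and 33.1, 34.8 and 25.5 in KCl 1, 2 and 4, so control 2 and KCl 4 were its low libraries. A term for the difference between the 2 effects, added after the data were seen, passed for 0 members by edgeR (lowest adjusted p = 0.323), against 0.0075% of all genes. At an unadjusted p under 0.05 it picked out 22 members (28.6%, against 11.2% of all genes). That fit has 1 library per group in replicate 4 and leans on replicates 1 and 2 for its spread.

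**Figure D4:**
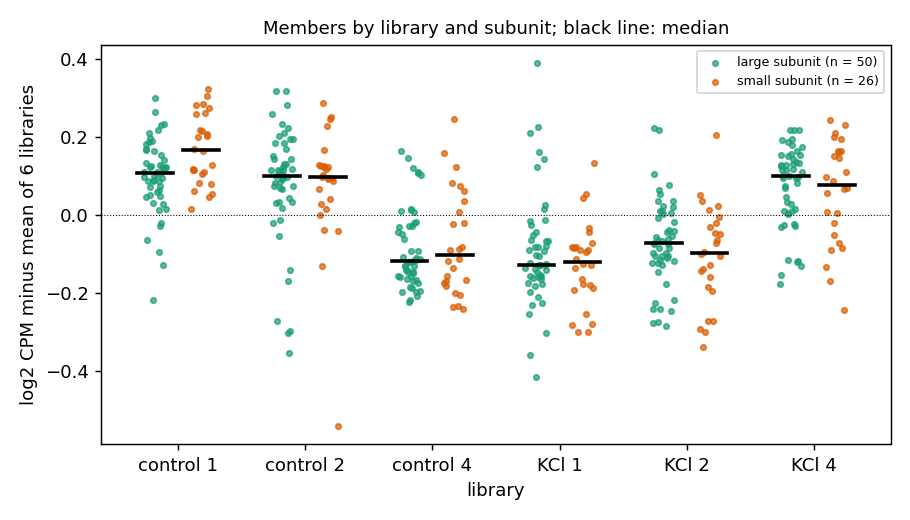
Log2 CPM minus the gene's mean over the 6 libraries for the 50 large-subunit (green) and 26 small-subunit members (orange) in each library, with black lines at the medians. Both subunits have medians above 0 in control 1, control 2 and KCl 4 and below 0 in the other 3 libraries.

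By library, the members' median log2 CPM relative to the mean of the 6 was 0.12, 0.10 and -0.12 in control 1, 2 and 4 and -0.13, -0.07 and 0.10 in KCl 1, 2 and 4. Large-subunit medians were 0.11, 0.10, -0.12, -0.13, -0.07 and 0.10 in the same order, and small-subunit medians 0.17, 0.10, -0.10, -0.12, -0.10 and 0.08. The subunits thus had the same sign in all 6 libraries. As a share of all counts, the 77 genes took 0.266%, 0.260% and 0.230% in control and 0.226%, 0.221% and 0.256% in KCl. Control 1 held the highest value of 38 members and control 2 of 29, and KCl 1 held the lowest of 43 and KCl 2 of 21. In the 6-library fit the median log2 fold change was -0.08 over the large subunit (2 higher, 4 lower, 44 not passing) and -0.12 over the small one (0, 2 and 24). Without replicate 4 the medians were -0.21 and -0.22, with 0 calls in either. Members with a bacterial relative had a median of -0.08 (0 higher, 3 lower of 46) and those specific to mitochondria -0.11 (2 higher, 3 lower of 30).

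Mammals have 3 relatives of bacterial S18, of which Mrps18a and Mrps18b were grouped with the mitochondria-specific proteins. Mrps18b, of the small subunit, was at 29.1, 27.6 and 22.7 CPM in control libraries and 22.3, 23.0 and 28.0 in KCl libraries, the crossed pattern. Mrps18c, also of the small subunit, was at 29.3, 28.1 and 28.9 CPM in the controls and 25.7, 26.4 and 25.6 with KCl, with all KCl libraries lower but an edgeR adjusted p of 0.101 (-0.15 ± 0.05, and -0.14 ± 0.09 with 0.342 without replicate 4). Mrps18a, which belongs to the large subunit despite its symbol, was at 36.4, 25.3 and 28.5 CPM without KCl and 37.9, 31.5 and 36.9 after KCl, with overlapping groups (0.235 ± 0.15, edgeR adjusted p = 0.359, and 0.17 ± 0.21 with 0.613 without replicate 4). Exons of another gene cover 30.5% of the exon bases of Mrps18b and 23.2% of those of Mrps18c. The log2 fold change of Mrps18b was -0.12 ± 0.13, and -0.33 ± 0.10 without replicate 4 (edgeR adjusted p = 0.621 and 0.116). Whether the 3 differ in their response was not tested. Mrps30, another large-subunit protein with a small-subunit symbol, was at 40.9, 36.6 and 33.0 CPM in control libraries and 32.6, 34.1 and 38.7 in KCl libraries, again crossed, with a log2 fold change of -0.07 ± 0.105 (edgeR adjusted p = 0.694), and -0.22 ± 0.10 without replicate 4 (0.217).

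The 6 mitoribosomal proteins that carry other symbols (Dap3, Chchd1, Aurkaip1, Ptcd3, Gadd45gip1 and Ict1) had 0 higher, 0 lower and 6 not passing, with a median log2 fold change of -0.02, and -0.11 without replicate 4. The crossed pattern was present in 4 of them. The calls in the lists that follow are to be read against the 22.9% of all tested genes that passed (12.4% higher, 10.5% lower). Where a list had 1 to 4 calls, they are descriptions of single genes and say nothing particular of the list. Without replicate 4 none of these lists had a gene that passed. Of 22 tested factors that assemble the mitoribosome or modify its RNA (24 listed), 1 rose and 3 fell, with a median of -0.07. Those that fell were Tfb1m (-0.41 ± 0.07) and Mettl15 (-0.52 ± 0.11), which methylate the small subunit's RNA, and Mrm1 (-0.30 ± 0.07), which methylates the large subunit's RNA. Ngrn, needed for the large subunit's RNA, rose by 0.42 ± 0.09. Their edgeR adjusted p ran from 0.0114 for Tfb1m to 0.0299 for Mrm1, but 0 of the 4 passed without replicate 4 (0.121 to 0.219).

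Of 15 mitochondrial translation factors, 3 fell and 0 rose (median -0.07). Gfm2 and Mrrf, which take the ribosome apart after termination, changed by -0.39 ± 0.06 and -0.36 ± 0.07 on the log2 scale. Oxa1l, which inserts new proteins into the inner membrane, changed by -0.19 ± 0.05. Their edgeR adjusted p values were 0.00787, 0.0134 and 0.0486, and 0.0982, 0.137 and 0.130 without replicate 4. Gfm2 was at 37.1, 41.4 and 38.9 CPM in the controls and 29.7, 29.97 and 29.8 with KCl, so its groups lay well apart. Of 20 genes for mitochondrial aminoacyl-tRNAs 1 fell, the arginyl-tRNA synthetase gene Rars2 (-0.54 ± 0.07, edgeR adjusted p = 0.00581, and 0.0708 without replicate 4), and the median was -0.01. Of 11 genes for mitochondrial transcription and RNA processing 1 fell, Trmt10c, a part of the mitochondrial RNase P (-0.26 ± 0.06, edgeR adjusted p = 0.0206, and 0.162 without replicate 4).

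Among 8 tested regulators of nuclear genes for mitochondria (9 listed), 2 rose and 1 fell. Ppargc1b, a coactivator, went from 4.71, 6.87 and 6.21 CPM in control to 10.9, 13.99 and 11.8 in KCl. It rose by 1.04 ± 0.17 on the log2 scale (edgeR adjusted p = 0.00922, and 0.0894 without replicate 4). Esrra, the nuclear receptor ERR alpha with which it works, went from 42.4, 44.5 and 45.9 CPM to 64.7, 68.2 and 63.0. That was a rise of 0.56 ± 0.06 (edgeR adjusted p = 0.00356, and 0.0651 without replicate 4). Gabpb1, a subunit of GABP, fell by 0.30 ± 0.05 on the log2 scale, from 44.1, 44.3 and 44.1 CPM to 34.8, 37.1 and 35.9 (edgeR adjusted p = 0.0106, and 0.115 without replicate 4). Of the 13 genes of mitochondrial DNA whose messengers the mitoribosome translates, 4 fell and 0 rose. All 13 had a log2 fold change below 0 (median -0.22). Those that fell were mt-Co3 (-0.26 ± 0.06) of complex IV, mt-Cytb (-0.275 ± 0.06) of complex III, and mt-Atp8 (-0.30 ± 0.06) and mt-Atp6 (-1.84 ± 0.45) of the ATP synthase, with edgeR adjusted p of 0.0156 to 0.0322, and 0.143 to 0.200 without replicate 4. The genes mt-Atp8 and mt-Atp6 share bases, so reads there may be split between them. In mt-Atp6 the libraries spread widely, at 6725, 3006 and 5469 CPM without KCl and 748, 2134 and 1351 with it. They showed the crossed pattern in 0 of 13, and KCl 4 was below control 4 in all 13.

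The cytosolic ribosomal protein genes and the nuclear genes of the respiratory chain are set beside the members here without a test of any difference between lists. Of 76 cytosolic ribosomal protein genes, 28 fell (36.8%, against 10.5% of all genes) and 0 rose (against 12.4%) with all 6 libraries. The median was -0.16, and 22 showed the crossed pattern (28.9%, against 13.7% of all genes). Without replicate 4, 0 of the 76 passed and the median was -0.25. Their median level relative to the mean of the 6 libraries was 0.18, 0.08 and 0.07 in control 1, 2 and 4 and -0.10, -0.14 and -0.08 in KCl 1, 2 and 4, which separates the groups where the mitochondrial members' medians do not. Of 74 respiratory chain genes, 4 rose (5.41%, against 12.4% of all genes) and 0 fell (against 10.5%). The median was -0.05, and 32 showed the crossed pattern (43.2%, against 13.7% of all genes). Without replicate 4, 0 of the 74 passed and the median was -0.14. KCl 4 minus control 4 had a median of -0.15 over cytosolic ribosomal protein genes, 0.24 over respiratory chain genes and 0.21 over the members.

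All 77 members have a place in GENCODE M21 on GRCm38, where all are protein-coding, on 17 chromosomes with 10 of them on chromosome 11, so the 8 called genes do not share a locus. Mrpl45 (ENSMUSG00000018882) lies at chr11:97315716-97329920 and Mrps23 (ENSMUSG00000023723) at chr11:88204388-88211507, both on the plus strand. Mrpl53 (ENSMUSG00000030037) lies at chr6:83109040-83109939, Mrpl30 (ENSMUSG00000026087) at chr1:37890477-37898535 and Mrpl24 (ENSMUSG00000019710) at chr3:87919506-87923672, also on the plus strand. On the minus strand are Mrps22 (ENSMUSG00000032459) at chr9:98588730-98601660, Mrpl32 (ENSMUSG00000015672) at chr13:14608184-14613165 and Mrpl43 (ENSMUSG00000025208) at chr19:45004829-45006442. Values are for whole genes. Exons of 32 members overlap exons of another gene, on the opposite strand for 27, and 3 members (Mrps25, Mrps34 and Mrpl53) are overlapped over at least 50% of their exon bases. The symbol and the description of 1 row differ in the deposited table, which lists Mrpl57 as protein L53, and the symbol was used.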

How the data were processed

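RNA was sequenced in 6 libraries, 3 control and 3 KCl, grouped and numbered by the sample titles. RNA isolated in Trizol was made into libraries and read on a NovaSeq instrument, per the labels' protocols. HISAT2 2.0.4, StringTie 1.3.3b, edgeR and build mm10 are named, per the submitters' processing notes. Which program counted reads, and whether by strand, is not given in the sources used here. The authors deposited a read count and an FPKM value per gene and library; FPKM was used only to compare levels between genes.

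Tests used edgeR 4.0.16 under R 4.3.3 (filterByExpr, minimum count 10 and total 15; TMM scaling; robust quasi-likelihood test, 2-sided; Benjamini-Hochberg adjustment over all tested genes, threshold 0.05), whose fold changes are KCl minus control with SE taken as the change divided by the square root of the test statistic F. "Called", "rose" and "fell" mean past that threshold. CPM is TMM-scaled, log2 CPM has a prior count of 2, and marker sums are scaled by library total. Members and lists were chosen with earlier results of these data known. Members named with a value per library were those called (up to 10 per direction) or called without replicate 4, the 3 highest and 3 lowest by FPKM, Mrps18a, Mrps18b, Mrps18c, Mrpl12, Mrps30 and those nearest to the minimum count, plus members marked in the text as chosen after their values were seen; from other lists, up to 4 with the smallest p. Alternatives were other scalings (RLE, upper-quartile, library size) and low-count filters, a block for the replicate number, leaving out each library or all of replicate 4, a batch term for replicate 4, DESeq2 1.42.0 and limma-voom (limma 3.58.1). limma-voom without replicate 4 and the interaction term were added after the data were seen. Since separate cultures are not stated, p-values cover only the variation among these libraries, possibly technical. The test was checked on simulated counts of libraries independent of one another. With 6 libraries it recovered 1 of 50 genes changed 1.25-fold, 24 of 50 changed 1.5-fold and 42 of 50 changed 2-fold. With 4 libraries it recovered 1, 6 and 34.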

Additional observations from a re-analysis of the deposited data

How the results depend on the processing

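The number of members called was 2 higher and 6 lower. It was 2 and 6 with RLE size factors, with no low-count filter and with limma-voom, 2 and 9 with upper-quartile scaling and 2 and 7 with library size only. It was 1 and 6 with a mean CPM of at least 5, 1 and 0 with the replicate block, 1 and 1 with replicate 4 as a batch term, 1 and 2 with DESeq2, and 0 and 0 without replicate 4 by edgeR or limma-voom. Leaving out 1 library gave 1 to 2 higher and 0 to 5 lower. The count over all genes, 3057 of 13326, was 1678 with the replicate block, 1573 with replicate 4 as a batch term, and 62 (edgeR) or 49 (limma-voom) without replicate 4; leaving out 1 library gave 1439 (without control 4) to 2851. The members' median log2 fold change of -0.10 ran from -0.155 to -0.05 with 1 library left out, was -0.21 (edgeR) or -0.22 (limma-voom) without replicate 4, and stayed below 0 in all of these. With upper-quartile scaling Mrps18c passed (-0.20, edgeR adjusted p = 0.0407). Values near 0 changed sign with 1 library left out for Mrpl4 (-0.125 to 0.051; above 0 without control 1 or KCl 2), Mrpl34 (-0.109 to 0.070; control 1 or KCl 1), Mrps17 (-0.065 to 0.043; control 2 or KCl 1) and Mrps30 (-0.147 to 0.003; control 1). Single omissions were not alike. Without control 4 or KCl 4, 0 members were lower, and 1439 or 1505 of all genes passed. Without any other single library 2 to 5 members were lower, and 2246 to 2851 of all genes passed. Fewer libraries lower what a test can call. Each of these omissions removes 1 library, and the cause of the differences among them was not tested. Between control and KCl libraries of the same number, deviations from the group mean correlated across genes at 0.0234 for replicate 1, -0.0555 for replicate 2 and -0.746 for replicate 4. The last value is tied to the dependence of control 4 and KCl 4 on the other libraries. Deviations within a group sum to 0, so the other values are affected too. Whether replicate numbers pair the libraries cannot be told from them.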
